A study of Homo sapiens with 4 samples.

Results

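The 37 genes described here are the mitochondrially encoded genes, chosen as every row of the gene count table whose symbol begins with MT-, and they are 37 of the 35211 genes in that table. They comprise 13 messenger RNAs (mRNAs), 2 ribosomal RNAs (rRNAs) and 22 transfer RNAs (tRNAs). RNA was sequenced in 4 libraries, 1 per group: PC3 cells transfected with a circ0003553 overexpression plasmid, PC3 cells with a negative control plasmid, DU145 cells with the circ0003553 plasmid and DU145 cells with the negative control plasmid. PC3 and DU145 are established human prostate cancer cell lines, and circ0003553 is, by its name, a circular RNA. The treatment labels and the design text name circ0003553 as what the plasmid expresses, whereas the sample titles call it an RCAN3 plasmid and do not name circ0003553. The circular RNA has no row of its own in the gene tables, so its overexpression was not checked here. All 4 cultures were transfected, and no untransfected cells are among them.

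Human mitochondria carry a small circular genome that is transcribed from both strands into long precursor RNAs. The tRNAs lie between most of the other genes, and their excision by endonucleases frees the flanking mRNAs and rRNAs, which then differ in level through their own stability. The mRNAs all encode subunits of the oxidative phosphorylation complexes, which PC3 and DU145 cells, like other proliferating cells, use beside glycolysis.

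The libraries held 39488890 counts in PC3 with circ0003553, 33438509 in the PC3 control, 36461229 in DU145 with circ0003553 and 38047428 in the DU145 control. Genes known to be lost in PC3 separated the lines as labelled. STAT3, a transcription factor deleted in PC3, had 0.152 and 0.0598 CPM (counts scaled to a common library total) in PC3 with circ0003553 and in the PC3 control, and 169 and 197 CPM in DU145 with circ0003553 and in the DU145 control. The epithelial keratin gene KRT8 was present in all 4 libraries, at 484, 468, 3070 and 2720 CPM in the same order. Leukocyte markers summed to between 0.0549 and 0.837 CPM, over the 2 of 3 listed genes that the table holds. The 3 fibroblast and smooth muscle markers summed to 39.8 and 35.4 CPM in PC3 with circ0003553 and in the PC3 control, nearly all of it COL1A1, and to 5.29 and 7.33 CPM in the DU145 libraries with circ0003553 and control plasmid. The 3 endothelial markers summed to 15.1 and 17.6 CPM in PC3 and to 0.878 and 0.473 CPM in DU145, in the same plasmid order, nearly all of it PECAM1 in PC3, while CDH5 and VWF were at most 0.384 CPM in any library. The part of these marker levels in the results below was not tested.

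The 37 genes were packed with little space between them. Of 36 neighbouring pairs in the hg38 coordinates of the deposited table, 25 abutted or overlapped, 6 had 1 to 3 bases between them, and the widest gap was 31 bases. The plus strand carried 28 genes and the minus strand 9, namely MT-ND6 and 8 tRNAs. MT-ATP8 and MT-ATP6, both subunits of ATP synthase, shared 46 bases (chrM:8527-8572), and MT-ND4L and MT-ND4, both subunits of complex I, shared 7 (chrM:10760-10766). Both overlaps are shown from GENCODE release 29 transcripts (build GRCh38), 5′ to 3′ on the plus strand with flanking bases on each side and the shared bases in capitals, because a read in them belongs to both genes.
MT-ATP8 and MT-ATP6: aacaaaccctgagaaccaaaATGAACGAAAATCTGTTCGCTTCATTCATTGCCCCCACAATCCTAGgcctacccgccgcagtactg
MT-ND4L and MT-ND4: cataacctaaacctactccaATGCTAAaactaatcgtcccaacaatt
How reads in shared bases were assigned is not given in the sources used here, so the values of these 4 genes are uncertain to that extent.

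Of the 13 mRNAs, 7 ended in a whole codon, 5 ended in a single T and 1 in TA, stop codons that only a poly(A) tail completes. The last 30 bases of the 6 incomplete ones are shown, with the bases past the last whole codon in capitals, because in each of them the annotated gene stops where processing of the precursor cuts it.
MT-ND1: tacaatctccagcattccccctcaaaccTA
MT-ND2: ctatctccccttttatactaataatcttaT
MT-CO3: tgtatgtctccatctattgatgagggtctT
MT-ND3: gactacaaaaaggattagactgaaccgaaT
MT-ND4: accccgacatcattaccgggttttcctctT
MT-CYB: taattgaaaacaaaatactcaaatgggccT
Each of these 6 was followed directly by a tRNA, among them MT-ND4 by the run of MT-TH, MT-TS2 and MT-TL2. The other 3 overlaps of neighbours were 3 bases between MT-TI and MT-TQ on opposite strands, 1 between MT-TC and MT-TY, and 1 between MT-ATP6 and MT-CO3.

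The 37 genes together took 6.34% of the counts in PC3 with circ0003553, 6.88% in the PC3 control, 4.96% in DU145 with circ0003553 and 6.28% in the DU145 control. The exact Clopper-Pearson 95% interval, computed on halved counts, was 6.33% to 6.36% in PC3 with circ0003553 and no wider in the other libraries. The share was lower with circ0003553 than with the control plasmid in both lines, and DU145 with circ0003553 held the lowest of the 4. The ratio of the share with circ0003553 to that with the control plasmid was 0.923 in PC3 and 0.790 in DU145. With 2 pairs of libraries, the two-sided exact permutation test of the log2 ratios (mean -0.23) gave p = 0.5, the smallest it can give. A share is relative to the other RNA of its library, so a lower share does not by itself show less mitochondrial RNA per cell. In RNA from whole cultures, numbers of mitochondrial genomes per cell and of transcripts per genome cannot be told apart either.

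The classes did not move alike. The mRNAs took 4.93% of the counts in PC3 with circ0003553, against 5.52% in the PC3 control, and 3.66% in DU145 with circ0003553, against 4.68% in the DU145 control. The rRNAs took 1.16% in PC3 with circ0003553 and 1.09% in its control, and 1.13% in DU145 with circ0003553 and 1.44% in its control. The tRNAs took 0.260% and 0.265% in PC3 with circ0003553 and control, and 0.170% and 0.162% in DU145 with circ0003553 and control. The lower share with circ0003553 thus lay in the mRNAs in both lines and in the rRNAs in DU145, whereas the tRNA share of PC3 was above that of DU145 with either plasmid.

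**Figure D1:**
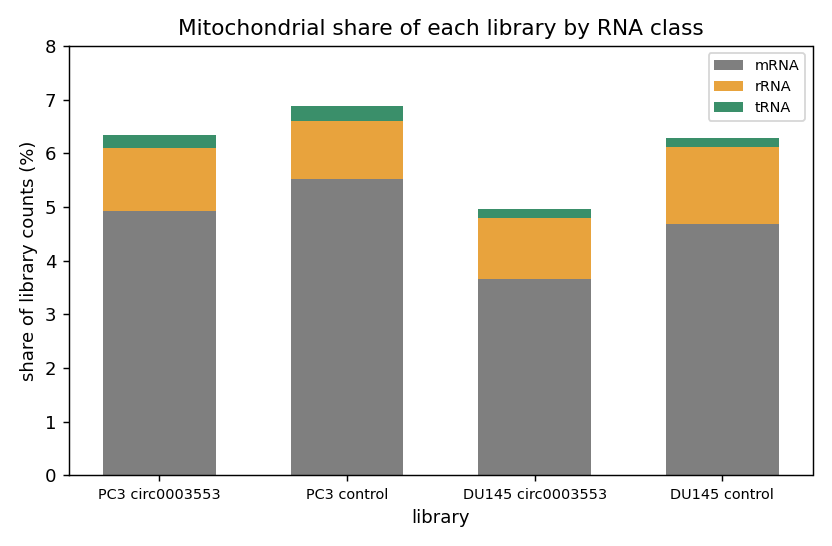
Share of each library's counts (%, vertical axis) taken by the mitochondrial mRNAs, rRNAs and tRNAs, stacked, with 1 bar for each of the 4 libraries. DU145 with circ0003553 had the lowest total, 4.96%, and the PC3 control the highest, 6.88%.

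Within the mitochondrial counts, the subunits of complex I, which passes electrons from NADH to ubiquinone, made up 41.9% in PC3 with circ0003553 and 44.0% in the PC3 control, against 35.4% in DU145 with circ0003553 and 34.5% in the DU145 control. The 3 subunits of complex IV, cytochrome c oxidase, took 20.9% and 20.8% in PC3 and 21.6% and 22.2% in DU145 with circ0003553 and control. The 2 subunits of complex V, ATP synthase, took 10.2% and 10.5% in PC3 and 12.9% and 13.9% in DU145, in the same plasmid order. Complex I therefore took a larger share of mitochondrial counts in PC3 and complex V a smaller one, with no overlap between the lines, while within each line the plasmids lay closer together than the lines did.

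Levels compared between genes are given in RPKM, which scales counts by gene length and library total, as deposited. The mRNA levels spanned 4.75-fold in PC3 with circ0003553, 5.08-fold in the PC3 control, 5.06-fold in DU145 with circ0003553 and 5.63-fold in the DU145 control. MT-CO3 was the highest mRNA in PC3, MT-ATP6 the highest in DU145 and MT-CO2 the lowest in all 4 libraries. The tRNA levels spanned 21.7-fold, 26.6-fold, 28.8-fold and 26.3-fold in the same library order. The highest tRNA was MT-TR in both PC3 libraries, at 4530 RPKM with circ0003553 and 5760 in the control, and MT-TC in both DU145 libraries, at 3790 RPKM with circ0003553 and 3530 in the control. The lowest was MT-TD in both PC3 libraries and MT-TM in both DU145 libraries.

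**Figure D2:**
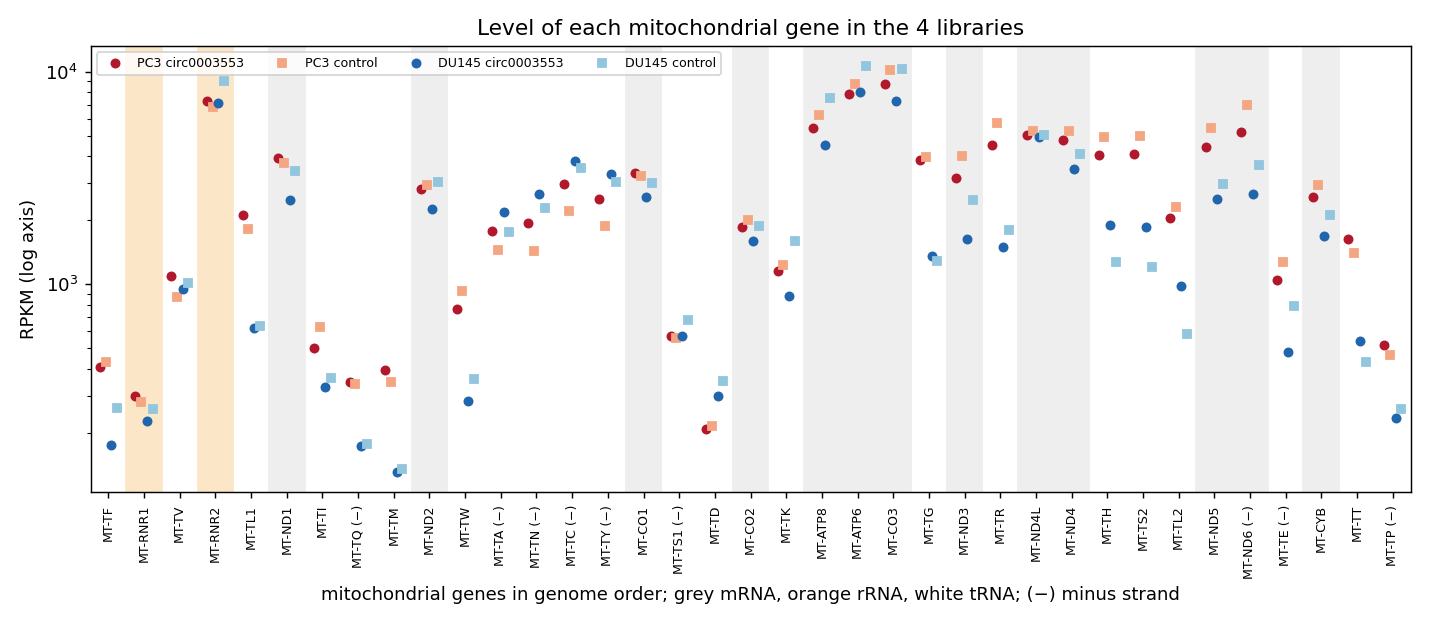
Level of each of the 37 mitochondrial genes in genome order (RPKM, log axis), with 1 point for each of the 4 libraries. MT-CO2 was the lowest mRNA in every library, and the tRNAs ran from 131 RPKM for MT-TM in DU145 with circ0003553 to 5760 RPKM for MT-TR in the PC3 control.

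Between the plasmids, no mitochondrial gene passed the test. Counts of 21731 genes were tested by the quasi-likelihood method of edgeR with the cell line as a term, p-values were adjusted by Benjamini-Hochberg, and a gene is here termed called where its adjusted p was under 0.05. None of the 37 members was called, against 0.465% of all genes tested (101 genes, 0.396% higher and 0.069% lower with circ0003553). At an unadjusted p under 0.05 the members numbered 15, of which 10 were lower with circ0003553 and 5 higher, against 8.88% of all genes tested (4.01% lower and 4.86% higher). The DESeq2 test and edgeR with scaling by total counts each called 2 members, MT-ND3 and MT-ND6. Of all 21731 genes tested, DESeq2 called 63 and edgeR with scaling by total counts called 92. Each plasmid has 1 library per line, so the 1 residual degree of freedom is the disagreement of the plasmid ratio between the lines. With 13.4 prior degrees of freedom, most of each variance estimate came from the other genes. These p-values therefore do not measure the spread between replicate cultures.

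All 13 mRNAs had a fitted fold change below 0 with circ0003553, with a median of -0.25 on the log2 scale, against a median of 0 over all genes tested. Within the lines the log2 ratio of library-scaled CPM was below 0 in both PC3 and DU145 for 10 of the 13 mRNAs (11 with scaling by total counts) and for 18 of the 37 members, against 26.2% of all genes tested. The mRNAs' median log2 ratio was -0.18 in PC3 and -0.35 in DU145. The 3 mRNAs that did not share a direction were MT-ND1, MT-CO1 and MT-ND4L. The 13 mRNAs share precursor RNAs and come from the same 4 libraries, so they are not independent of each other.

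The lowest fitted changes among the mRNAs were those of MT-ND3, MT-ATP8 and MT-ND6. MT-ND3, a core subunit of the membrane arm of complex I, had 3160 RPKM in PC3 with circ0003553 and 4010 in the PC3 control, and 1630 RPKM in DU145 with circ0003553 and 2480 in the DU145 control. It was lower with circ0003553 in both lines, by folds of 0.775 in PC3 (95% interval 0.761 to 0.789) and 0.675 in DU145 (0.658 to 0.692). Its fitted log2 fold change was -0.47 ± 0.11 (SE), with an edgeR adjusted p of 0.0874. With DESeq2 its adjusted p was 0.0018, and with edgeR and scaling by total counts it was 0.0428.

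MT-ND6, the complex I subunit encoded on the minus strand, had 5190 RPKM in PC3 with circ0003553 and 6980 in the PC3 control, and 2670 RPKM in DU145 with circ0003553 and 3650 in the DU145 control. The values with circ0003553 were below the control within each line, and the ratios of the lines were close, at folds of 0.731 in PC3 (0.723 to 0.74) and 0.754 in DU145 (0.742 to 0.766). The fitted log2 fold change was -0.43 ± 0.11 with an edgeR adjusted p of 0.163. It had an adjusted p of 0.000117 with DESeq2 and of 0.0434 with edgeR and scaling by total counts. Whether the counting used strand is not given in the sources used here, so reads of MT-ND6 and of precursor RNA from the opposite strand cannot be told apart. Per length, MT-ND6 was 1.17 and 1.29 times its plus-strand neighbour MT-ND5 in PC3 with circ0003553 and control, and 1.06 and 1.24 times in DU145 with circ0003553 and control.

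The remaining complex I subunits had smaller fitted changes. MT-ND5, a proton-pumping subunit, had 4420 RPKM in PC3 with circ0003553 and 5420 in the PC3 control, and 2530 RPKM in DU145 with circ0003553 and 2960 in the DU145 control (log2 ratios -0.32 and -0.18). MT-ND4, another proton-pumping subunit, had 4760 and 5260 RPKM in PC3 with circ0003553 and control, and 3490 and 4100 RPKM in DU145 with circ0003553 and control. MT-ND4L had 5040 and 5280 RPKM in PC3 and 4950 and 5020 RPKM in DU145, in the same plasmid order. Of these 3, MT-ND4L came closest to equal levels with both plasmids, with a fitted log2 fold change of -0.03 ± 0.11. MT-ND2, likewise a proton-pumping subunit, had 2810 and 2940 RPKM in PC3 and 2260 and 3040 RPKM in DU145, with circ0003553 and control. MT-ND1, which lies at the junction of the arms of the complex, had 3930 RPKM in PC3 with circ0003553 and 3700 in its control, and 2490 RPKM in DU145 with circ0003553 and 3400 in its control. MT-ND1 was thus slightly above the control in PC3 and below it in DU145.

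In complex V, MT-ATP8 had 5460 RPKM in PC3 with circ0003553 and 6260 in the PC3 control, and 4510 RPKM in DU145 with circ0003553 and 7530 in the DU145 control. MT-ATP6, which forms part of the proton channel, had 7830 and 8710 RPKM in PC3 and 8040 and 10600 RPKM in DU145, with circ0003553 and control. Both genes were lower with circ0003553 in each line, and the MT-ATP8 fold of 0.617 in DU145 (0.605 to 0.629) was the lowest of any mRNA in either line. Fitted log2 fold changes were -0.46 ± 0.12 for MT-ATP8 (edgeR adjusted p = 0.174) and -0.27 ± 0.13 for MT-ATP6 (edgeR adjusted p = 0.572). Per length, MT-ATP8 stood at 0.697 and 0.719 of MT-ATP6 in PC3 with circ0003553 and control, and at 0.562 and 0.713 in DU145 with circ0003553 and control, so their ratio was lower in DU145 with circ0003553 than in the other 3 libraries.

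In complex IV, MT-CO3 had 8770 RPKM in PC3 with circ0003553 and 10200 in the PC3 control, and 7250 RPKM in DU145 with circ0003553 and 10300 in the DU145 control. MT-CO1, which holds the oxygen-reducing centre, had 3340 and 3230 RPKM in PC3 and 2560 and 2990 RPKM in DU145, with circ0003553 and control. MT-CO2, which takes electrons from cytochrome c, had 1850 and 2000 RPKM in PC3 and 1590 and 1880 RPKM in DU145, in the same plasmid order. MT-CO3 thus had the lower ratios of the 3, with a fitted log2 fold change of -0.35 ± 0.13 (edgeR adjusted p = 0.434), and MT-CO1 was about level in PC3. MT-CYB, the only complex III subunit encoded in mitochondria, had 2570 and 2940 RPKM in PC3 and 1690 and 2110 RPKM in DU145, with circ0003553 and control, and its fitted log2 fold change was -0.25 ± 0.11 (edgeR adjusted p = 0.542).

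Along the plus strand of the genome, the PC3 ratios of the 12 mRNAs were lower for genes farther from the start of the map. Pearson's r between the log2 ratio and the gene's start was -0.70 in PC3 and 0.22 in DU145, and Spearman's rho was -0.64 and 0.29. In PC3 the log2 ratio was 0.06 for MT-ND1, the first of them, and -0.32 for MT-ND5 and -0.22 for MT-CYB, the last ones. In DU145 the ratios had no such order, with -0.41 for MT-ND1, -0.70 for MT-ATP8 in the middle and -0.28 for MT-CYB. These are correlations across neighbouring genes of 1 pair of libraries each, which share precursors and library scaling.

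**Figure D3:**
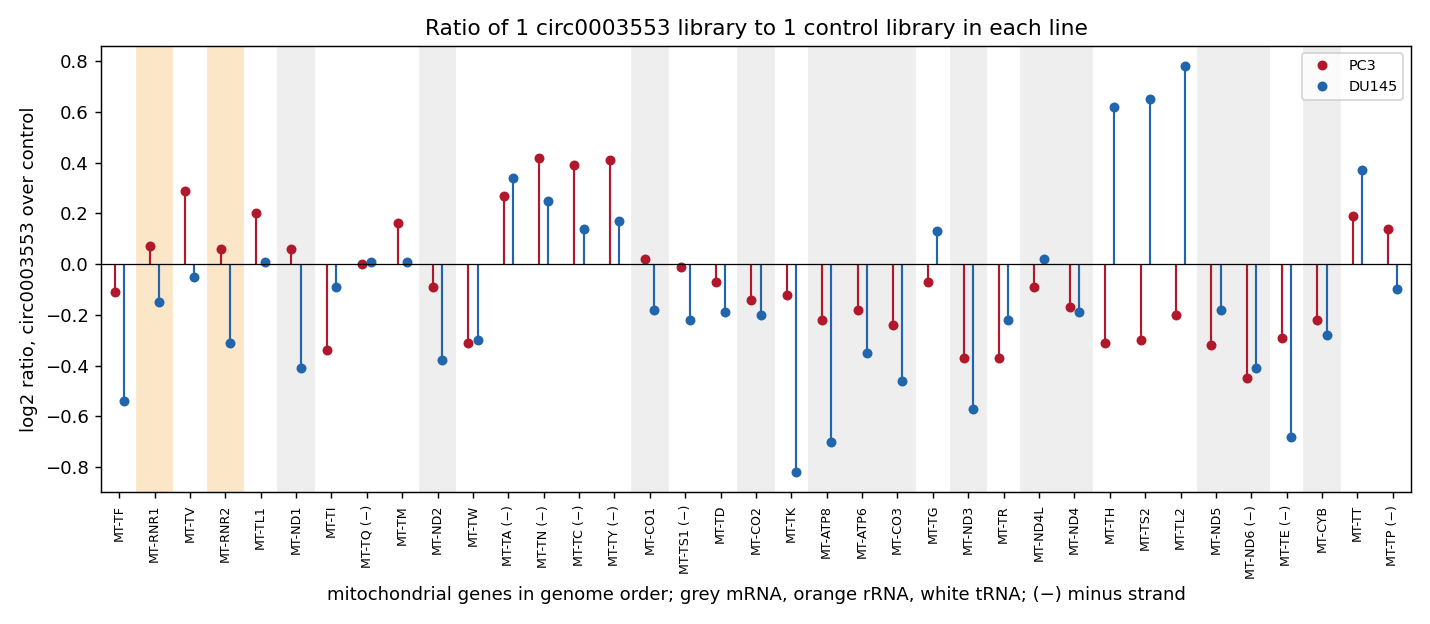
Log2 ratio of circ0003553 over control within PC3 and within DU145 for the 37 mitochondrial genes in genome order. Most mRNAs lay below 0 in both lines, the 4 tRNAs from MT-TA to MT-TY lay above 0 in both, and MT-TH, MT-TS2 and MT-TL2 pointed in opposite directions.

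The rRNAs MT-RNR1 and MT-RNR2, the small-subunit and large-subunit RNAs of the mitochondrial ribosome, were measured after depletion of ribosomal RNA. MT-RNR1 had 298 RPKM in PC3 with circ0003553 and 279 in the PC3 control, and 228 RPKM in DU145 with circ0003553 and 260 in the DU145 control. MT-RNR2 had 7250 and 6830 RPKM in PC3 and 7100 and 9050 RPKM in DU145, with circ0003553 and control. Both were above the control in PC3 and below it in DU145. Per length, MT-RNR1 stood at 0.0411 and 0.0409 of MT-RNR2 in PC3 and at 0.0321 and 0.0287 in DU145, with circ0003553 and control, although the ribosome holds the pair in equal numbers. The part of the depletion step in these values was not tested.

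The tRNAs had no common direction between the plasmids: 7 were above the control in both lines, 8 below it in both, and 7 were split. Of all genes tested, 26.7% were above 0 in both lines, 26.2% were below 0 in both, and 10230 of 21731 were split. Those above the control in both lines included the plus-strand MT-TL1, MT-TM and MT-TT. MT-TT had log2 ratios of 0.19 in PC3 and 0.37 in DU145. Its fitted log2 fold change was 0.28 ± 0.10 (edgeR adjusted p = 0.422), about that of the minus-strand run described next. The 4 adjacent minus-strand tRNAs for alanine, asparagine, cysteine and tyrosine were all higher with circ0003553 in both lines. Their transcript sequences (GENCODE release 29, 5′ to 3′ on the minus strand, anticodon in capitals) are shown because they stand out from the mRNAs in both comparisons. The plus-strand MT-TW, the tryptophan tRNA that ends 7 bases before MT-TA on the genome, is shown with them.
MT-TW: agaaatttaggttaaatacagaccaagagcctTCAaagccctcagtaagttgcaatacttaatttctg
MT-TA: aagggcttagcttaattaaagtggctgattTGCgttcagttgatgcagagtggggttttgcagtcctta
MT-TN: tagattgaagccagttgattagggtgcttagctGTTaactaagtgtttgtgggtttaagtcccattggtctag
MT-TC: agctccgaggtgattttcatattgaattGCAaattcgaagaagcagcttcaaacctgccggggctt
MT-TY: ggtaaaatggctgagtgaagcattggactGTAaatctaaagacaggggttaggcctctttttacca
Summed over these 4 minus-strand tRNAs (chrM:5587-5891), the level was 627 CPM in PC3 with circ0003553 and 475 in the PC3 control, and 811 CPM in DU145 with circ0003553 and 721 in the DU145 control. Both values with circ0003553 exceeded the control of their line, and both DU145 values exceeded both PC3 values. As for MT-ND6, these counts may include reads of precursor from the opposite strand, because the strand setting is not known. The fitted log2 fold changes with circ0003553 were 0.31 ± 0.10 for MT-TA, 0.33 ± 0.10 for MT-TN, 0.27 ± 0.10 for MT-TC and 0.28 ± 0.10 for MT-TY. None was called, and the lowest edgeR adjusted p among them was 0.248, for MT-TN. MT-TW went the other way, with 764 and 934 RPKM in PC3 and 282 and 358 RPKM in DU145, with circ0003553 and control, and a fitted log2 fold change of -0.31 ± 0.11 (edgeR adjusted p = 0.364).

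The plus-strand run of the histidine, serine and leucine tRNAs (chrM:12138-12336), between MT-ND4 and MT-ND5, differed in direction between the lines. The 3 sequences are given as above, on the plus strand, with the anticodon in capitals. MT-TS2 is the shortest of the 22 tRNAs, at 59 bases, and is known for lacking the D-arm.
MT-TH: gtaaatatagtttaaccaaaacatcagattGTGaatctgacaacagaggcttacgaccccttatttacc
MT-TS2: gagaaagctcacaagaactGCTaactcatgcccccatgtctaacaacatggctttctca
MT-TL2: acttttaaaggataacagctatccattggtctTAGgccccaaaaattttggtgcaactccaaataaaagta
Their summed level was 666 CPM in PC3 with circ0003553 and 797 in the PC3 control, and 309 CPM in DU145 with circ0003553 and 201 in the DU145 control. The log2 ratios in PC3 were -0.31 for MT-TH, -0.30 for MT-TS2 and -0.20 for MT-TL2, and in DU145 they were 0.62, 0.65 and 0.78 for the same genes. The 3 genes moved together in each line, downward in PC3 and upward in DU145, while both flanking mRNAs were below the control in both lines. Per length, MT-TH stood at 0.853 and 0.939 of MT-ND4 in PC3 and at 0.544 and 0.310 in DU145, with circ0003553 and control. A line-by-plasmid term leaves no residual degree of freedom, so the difference between the lines was not tested. The 3 tRNAs abut on the plus strand and come from the same 4 libraries, so they are not independent of each other. How reads that cross gene borders were counted is not given in the sources used here, from MT-ND4 through the 3 tRNAs to MT-ND5. Reads of a mature tRNA and of its precursor cannot be told apart.

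Other tRNAs with low ratios lay on both strands. The minus-strand glutamate tRNA MT-TE, next to MT-ND6, had 1050 and 1270 RPKM in PC3 and 479 and 791 RPKM in DU145, with circ0003553 and control, and the lowest fitted log2 fold change of all 37 members, -0.48 ± 0.11 (edgeR adjusted p = 0.0969). The lysine tRNA MT-TK, between MT-CO2 and MT-ATP8, had 1150 and 1230 RPKM in PC3 and 884 and 1600 RPKM in DU145, in the same plasmid order. Its DU145 log2 ratio of -0.82 was the lowest value of any member in either line, and its fitted log2 fold change was -0.47 ± 0.13 (edgeR adjusted p = 0.233).

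Between the lines the mitochondrial genes differed more than between the plasmids. With PC3 over DU145 in the same edgeR fit, 26 of the 37 members were called, 22 higher and 4 lower in PC3, against 66.0% of all genes tested (33.1% higher and 32.9% lower). The share called in either direction is near the background, while most of the called members were higher in PC3. The median log2 fold change over all 37 members was 0.48, against 0 over all genes tested. Under the alternative settings the number called was 26 or 27. Each line has 2 libraries, which differ in plasmid. As between the plasmids, the p-values between lines therefore do not measure the spread between replicate cultures.

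Against 33.1% of all genes tested that were higher in PC3 and 32.9% that were lower, 7 of the 13 mRNAs rose and none fell. They were MT-ND6 (log2 fold change 1.02 ± 0.11), MT-ND5 (0.91 ± 0.13), MT-ND3 (0.90 ± 0.11), MT-CYB (0.61 ± 0.11), MT-ND4 (0.48 ± 0.13), MT-ND1 (0.46 ± 0.13) and MT-CO1 (0.32 ± 0.12), and the highest edgeR adjusted p among them was 0.0340. For each of the 7, both PC3 libraries lay above both DU145 libraries in RPKM. The test used these same libraries, so this adds no support to it. The log2 ratio of PC3 over DU145 was above 0 with both plasmids for 11 of the 13 mRNAs, against 44.0% of all genes tested. The 7 called mRNAs held 5 of the 7 complex I subunits, the complex III subunit, 1 of the 3 complex IV subunits and neither complex V subunit. MT-ATP6 and MT-ATP8 had fitted log2 fold changes of -0.09 ± 0.13 and 0.08 ± 0.12, with edgeR adjusted p of 0.564 and 0.605, and their PC3 and DU145 values overlapped. MT-CO2 had 0.23 ± 0.10, with an edgeR adjusted p of 0.0697, and was called by DESeq2 and by limma-voom. Of the rRNAs, MT-RNR1 was higher in PC3 (0.31 ± 0.10, edgeR adjusted p = 0.0117), and MT-RNR2 was not called (-0.12 ± 0.15, edgeR adjusted p = 0.495).

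The larger line differences were in the tRNAs, with a median log2 fold change of 1.03. In PC3 relative to DU145, 14 rose, 4 fell and 4 were not called, against 33.1% of all genes tested higher and 32.9% lower. The tRNAs are 59 to 75 bases long, and the libraries were of a selected length range. The part of that selection in the tRNA levels was not tested. The threonine tRNA MT-TT had 1630 RPKM in PC3 with circ0003553 and 1410 in the PC3 control, and 544 RPKM in DU145 with circ0003553 and 433 in the DU145 control, a fitted log2 fold change of 1.71 ± 0.10 (edgeR adjusted p = 2.11e-09). The arginine tRNA MT-TR, between MT-ND3 and MT-ND4L, had 4530 and 5760 RPKM in PC3 and 1500 and 1800 RPKM in DU145, with circ0003553 and control. The leucine tRNA MT-TL1, which follows MT-RNR2, had 2110 and 1810 RPKM in PC3 and 624 and 636 RPKM in DU145, in the same plasmid order. Fitted log2 fold changes were 1.71 ± 0.10 for both MT-TR and MT-TL1. For all 3 both PC3 libraries lay above both DU145 libraries, which adds no support to the test of these same libraries. MT-TG, MT-TH, MT-TS2, MT-TL2, MT-TM and MT-TW had fitted log2 fold changes between 1.48 and 1.66, and the other 5 called higher, MT-TF, MT-TI, MT-TQ, MT-TE and MT-TP, between 0.78 and 1.06.

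The 4 tRNAs that fell in PC3 relative to DU145 were MT-TN (-0.49 ± 0.10), MT-TC (-0.44 ± 0.10), MT-TY (-0.47 ± 0.10) and MT-TD (-0.54 ± 0.12), with edgeR adjusted p between 0.00043 and 0.00139. The first 3 belong to the minus-strand run shown above, and the run's other member, MT-TA, had a log2 fold change of -0.21 ± 0.10 (edgeR adjusted p = 0.0614, and under 0.05 with scaling by total counts and with halved counts). MT-TD, the aspartate tRNA on the plus strand, had 209 and 216 RPKM in PC3 and 299 and 352 RPKM in DU145, with circ0003553 and control. By strand, 11 of 14 plus-strand tRNAs rose and 1 fell, and 3 of 8 minus-strand tRNAs rose and 3 fell. Over all genes tested, 33.1% were higher and 32.9% lower in PC3, and the minus-strand counts were near those shares. Only 7 bases separate MT-TW and MT-TA, on opposite strands. With the strand setting of the counting unknown, reads of tRNAs and of precursor from the opposite strand cannot be told apart. MT-TW had 2051 and 2123 counts in PC3 and 700 and 927 counts in DU145, with circ0003553 and control, while MT-TA had 4859 and 3351 counts in PC3 and 5478 and 4638 counts in DU145. Per length, MT-TA was 2.33 and 1.56 times MT-TW in PC3 and 7.71 and 4.93 times in DU145, with circ0003553 and control.

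**Figure D4:**
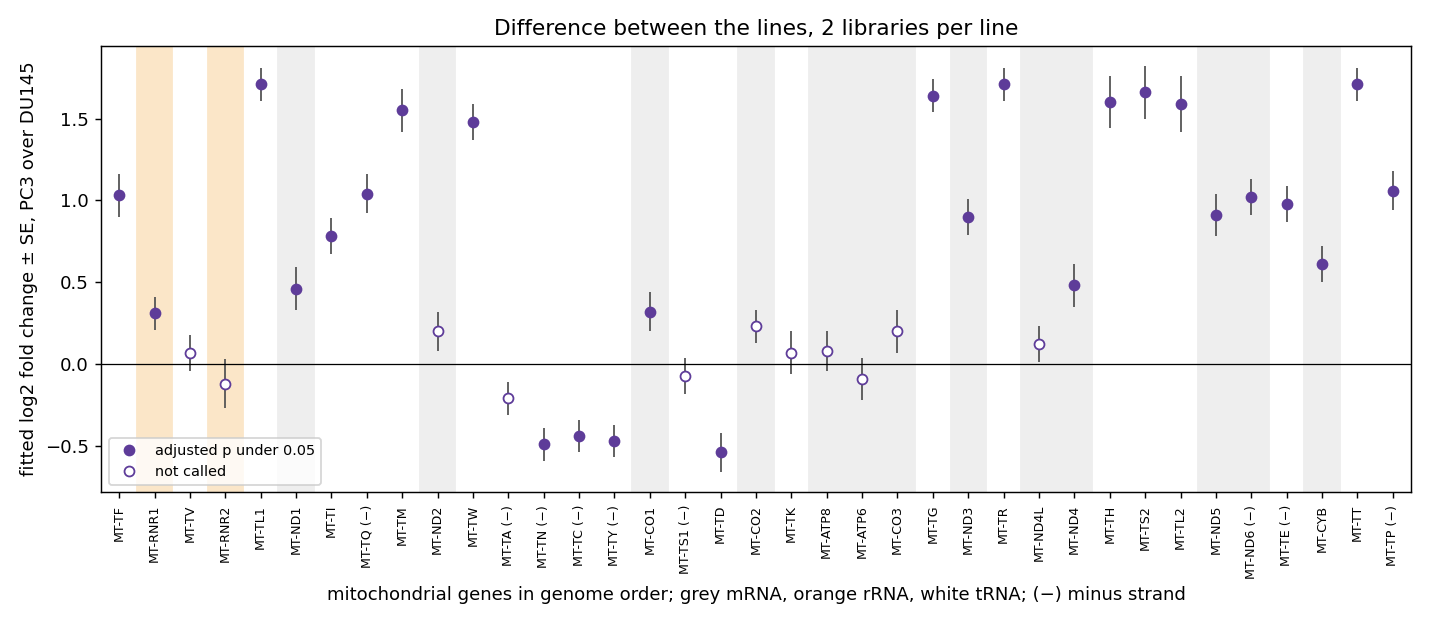
Fitted log2 fold change of PC3 over DU145 ± SE (2 libraries per line) for the 37 mitochondrial genes in genome order, filled where the edgeR adjusted p was under 0.05. The complex V mRNAs lay near 0, most tRNAs above 0, and the minus-strand run from MT-TA to MT-TY below 0.

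The tRNA, mRNA and rRNA levels also stood in different ratios to each other in the lines. MT-TR, which lies directly after MT-ND3, had 1.43 and 1.44 times the RPKM of MT-ND3 in PC3 with circ0003553 and control, and 0.919 and 0.725 times in DU145 with circ0003553 and control. MT-TG, which follows MT-CO3, stood at 0.438 and 0.391 of MT-CO3 in PC3 and at 0.187 and 0.124 in DU145, in the same plasmid order. Both ratios were higher in both PC3 libraries than in either DU145 library.

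Nuclear copies of the mitochondrial genes share reads with them and took a further 0.258% of the counts in PC3 with circ0003553, 0.279% in the PC3 control, 0.239% in DU145 with circ0003553 and 0.327% in the DU145 control. The table held 95 such rows, of which 28 passed the filter on low counts. The row with the most counts, MTATP6P1 on chromosome 1, differed from MT-ATP6 by 10 edits (98.5% identity) and had 30.5% and 28.3% of the counts of MT-ATP6 in PC3 and 33.5% and 34.5% in DU145, with circ0003553 and control. MTND2P28 had 12.2% and 12.1% of the counts of MT-ND2 in PC3 and 11.6% and 10.9% in DU145, in the same plasmid order. The counts of MT-ATP6 and MT-ND2 are thus uncertain by how such reads were assigned, which is not given in the sources used here. With the copies' counts added to their parents, the number of members called stayed at 0 between plasmids and 26 between lines.

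Of the 8 copies with the most counts, 5 lie in 1 block of chromosome 1 and 3 (MTND6P4, MTND5P11 and MTND4P12) in 1 block of chromosome 5. The chromosome 5 copies were less like their parents, at 95.0%, 93.0% and 95.7% identity. Their fitted log2 fold changes of PC3 over DU145 were 1.74 ± 0.10, 1.89 ± 0.10 and 1.73 ± 0.12, against 1.02, 0.91 and 0.48 for the parents MT-ND6, MT-ND5 and MT-ND4. The chromosome 1 copies ranged from -0.30 for MTATP6P1 to 0.87 for MTND1P23. Whether copies and parents differed in this was not tested. Between plasmids, MTND6P4 fell (-0.67 ± 0.10, edgeR adjusted p = 0.00445) and MTND5P11 fell (-0.55 ± 0.10, edgeR adjusted p = 0.0178), with log2 ratios of -0.61 and -0.54 in PC3 and -0.74 and -0.56 in DU145. These were 2 of the 28 copies tested, against 0.465% of all genes tested. Between lines, 13 of the 28 copies were higher and 2 lower in PC3 than in DU145, against 33.1% and 32.9% of all genes tested.

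**Figure D5:**
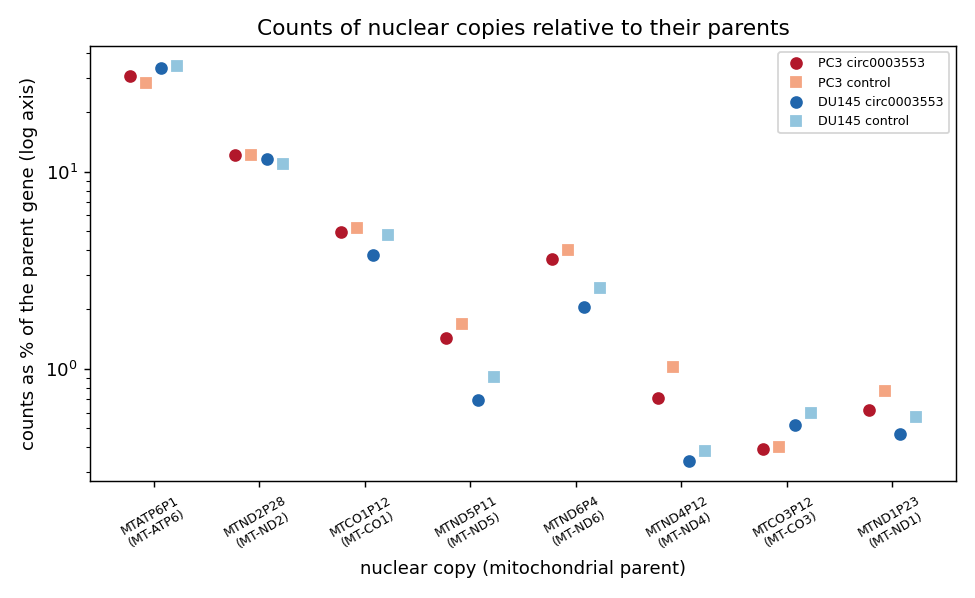
Counts of the 8 most counted nuclear copies as a percentage of the counts of their mitochondrial parent (log axis), with 1 point for each of the 4 libraries. MTATP6P1 lay between 28.3% and 34.5% of MT-ATP6, and the chromosome 5 copies MTND5P11, MTND6P4 and MTND4P12 were higher relative to their parents in PC3 than in DU145.

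The nuclear genes that copy, transcribe, process, modify and translate mitochondrial RNA were read from the same fit. Of 85 tested genes in 6 lists, none was called between plasmids, against 0.465% of all genes tested, and their median log2 fold change was 0.03. An unadjusted p under 0.05 was found for 4 of them, all higher with circ0003553, against 4.86% of all genes tested that were higher, so the list does not stand above the background. TFB2M, the transcription factor that melts mitochondrial promoters, had 37.3 and 33.4 CPM in PC3 and 31.7 and 21.4 CPM in DU145, with circ0003553 and control (log2 fold change 0.37 ± 0.13, edgeR adjusted p = 0.366). TFAM, which packages mitochondrial DNA and starts its transcription, had 75.5 and 81.6 CPM in PC3 and 31.9 and 34.0 CPM in DU145, in the same plasmid order. The TFB2M ratio was farther from 1 in DU145 than in PC3, and TFAM stood higher in PC3 than in DU145 with either plasmid. PPRC1, a coactivator of nuclear genes for mitochondria, had 56.0 and 47.5 CPM in PC3 and 124 and 99.2 CPM in DU145, with circ0003553 and control (0.29 ± 0.10, edgeR adjusted p = 0.363). PTCD2, an RNA-binding protein needed for MT-CYB processing in mouse, had 0.35 ± 0.15 (edgeR adjusted p = 0.507), and FASTKD1, which lowers MT-ND3 levels in human cells, had -0.26 ± 0.16 (edgeR adjusted p = 0.716).

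Of the 78 mitochondrial ribosomal proteins, none was called between plasmids. Those at the ends of the list were MRPS31 (log2 fold change 0.42 ± 0.13, edgeR adjusted p = 0.306) and MRPS18C (0.34 ± 0.10, edgeR adjusted p = 0.248) on the higher side and MRPL43 (-0.31 ± 0.12, edgeR adjusted p = 0.464) on the lower side. Over all 161 tested genes of the 6 lists and the ribosomal proteins, 9 had an unadjusted p under 0.05, against 8.88% of all genes tested, and DESeq2 and limma-voom called none.

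Between the lines, 37 of the 85 genes rose and 21 fell in PC3 relative to DU145, and 34 of the 78 ribosomal proteins rose and 17 fell, against 33.1% of all genes tested that were higher and 32.9% that were lower. Counted in either direction, both lists were near the 66.0% of all genes tested that were called. In each list the genes that rose outnumbered those that fell, while over all genes tested the directions were nearly equal. The genes that rose included TFAM (1.32 ± 0.10), TOP1MT, the mitochondrial topoisomerase (1.47 ± 0.10), TRMT10C, a subunit of the nuclease that frees the 5′ ends of tRNAs (1.31 ± 0.11), and SUPV3L1, the helicase of RNA decay (1.51 ± 0.11). Among those that fell were TEFM, the transcription elongation factor (-1.66 ± 0.19), KIAA0391, the catalytic subunit of the same tRNA nuclease (-1.41 ± 0.10), ELAC2, which frees the 3′ ends of tRNAs (-0.78 ± 0.10), TK2, the mitochondrial thymidine kinase (-1.69 ± 0.13), and MRM1, an rRNA methyltransferase (-2.05 ± 0.26). All of these were called by edgeR, the highest of their adjusted p being 6.93e-06. Subunits of 1 pathway therefore lay on both sides, as TRMT10C and KIAA0391 did.

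Of 7777 nuclear genes with a mean of at least 4 on the log2 CPM scale, those whose pattern over the 4 libraries came nearest to the median pattern of the 13 mRNAs were LA16c-358B7.3, RPS13, INO80B-WBP1, MRPL27 and IER3IP1. The measure was the Euclidean distance of centred log2 CPM, which was 0.0465 for the first and 0.0577 for the fifth. The mRNA pattern itself was 0.15 in PC3 with circ0003553, 0.20 in the PC3 control, -0.33 in DU145 with circ0003553 and -0.07 in the DU145 control. With 4 libraries, such a likeness describes 4 numbers.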

How the data were processed

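RNA was measured in 4 libraries, 1 per line and plasmid. The RNA was, per the labels' protocols, depleted of ribosomal RNA and made into strand-specific libraries with unique molecular identifiers, of a selected length range. Gene counts, not normalized, were deposited by the authors on build hg38, beside RPKM values, equal to those counts over gene length and library total. Tools named without roles in the submitters' processing notes are featureCounts, Subread 1.5.1, Trimmomatic 0.36 and edgeR 3.12.1. The aligner, strand setting and handling of identifiers were not given in the sources used here.

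Library totals were 33438509 to 39488890 counts. From 70.3% to 75.3% of counts between 1 and 20 were even, so counting intervals were computed on counts halved and rounded up. They cover counting error only. A floor of 3 counts lay at 0.0760 to 0.0897 CPM.

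The whole table was fitted with edgeR 4.0.16 (R 4.3.3, quasi-likelihood test, TMM scaling, filter on low counts by plasmid, line and plasmid as terms, 1 residual degree of freedom, prior degrees of freedom 13.4, coefficient of variation 0.0972). All 37 members passed the filter. Adjustment was by Benjamini-Hochberg at 0.05. Libraries were paired by cell line, as the labels give it. Ratios within a line were taken between CPM values after TMM scaling, with 2 as prior count, and exact conditional binomial 95% intervals. DESeq2 1.42.0, limma-voom (limma 3.58.1) and other scalings served as alternatives. The fit was tested on simulated data. Sequences and gene borders came from GENCODE release 29, whose coordinates matched the table for 37 of 37 members.

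The members and gene lists were chosen with earlier results of these data known. The mRNAs and rRNAs were each described. Transfer RNAs were to be named where called, among the 4 highest or lowest in counts, or overlapping another gene, and nuclear copies where among the 8 highest in counts or called. From each list the genes called and up to 3 with the highest or lowest fitted change were eligible. MT-TA and MT-TK were named after their values were seen, as were MT-TV and the choice of list genes within the rule.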

Additional observations from a re-analysis of the deposited data

Results flagged for a closer look

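Of the 37 genes, 8 had log2 ratios of circ0003553 over control that pointed in opposite directions in PC3 and DU145, with both lines' counting intervals excluding a ratio of 1 and the directions kept under every scaling tried. Each value rests on 1 pair of libraries, the difference between the lines was not tested, and counting intervals do not cover differences between cultures. By direction alone, 12 of the 37 genes were split between the lines, against 10230 of the 21731 genes tested. Opposite directions were thus not more frequent among the members than over all genes tested. How many of all genes met the full rule was not counted.

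Among the genes near the start of the map, MT-RNR1 had 0.07 in PC3 and -0.15 in DU145, MT-RNR2 had 0.06 in PC3 and -0.31 in DU145, MT-ND1 had 0.06 in PC3 and -0.41 in DU145, and MT-CO1 had 0.02 in PC3 and -0.18 in DU145. All 4 were above the control in PC3 and below it in DU145. MT-ND2, which lies between MT-ND1 and MT-CO1, was below it in both, at -0.09 and -0.38. The tRNAs that met the rule above had the other arrangement. MT-TV and MT-TP, which did not meet it, were above the control in PC3 and below it in DU145. MT-TG had -0.07 in PC3 and 0.13 in DU145, MT-TH had -0.31 in PC3 and 0.62 in DU145, MT-TS2 had -0.30 in PC3 and 0.65 in DU145, and MT-TL2 had -0.20 in PC3 and 0.78 in DU145.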

How the results depend on the processing

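The number of mitochondrial genes called between plasmids was 0 in all settings except scaling by total counts and DESeq2, with 2 each. The number between lines stayed at 26 or 27, and no nuclear gene of mitochondrial gene expression was called between plasmids in any setting. The count of all genes called between plasmids, 101, was 58 with mitochondrial genes left out of the scaling, 9 with no filter, 63 with DESeq2, 26 with limma-voom, 53 with legacy dispersions and 0 without the replicate block by cell line, where 26 genes had an unadjusted p under 0.05. The median mRNA log2 ratio in PC3 was -0.19 with DESeq2 size factors, -0.15 with total counts and -0.17 with nuclear copies added. In DU145 it was -0.40 with total counts, -0.36 with mitochondrial genes left out of the scaling and -0.37 with nuclear copies added. The share ratio in PC3 was 0.897 without rRNA genes and 0.918 relative to counts without mitochondrial and abundant noncoding RNAs. In DU145 it was 0.779 by the second of these and 0.787 with nuclear copies added. The sign turned for 6 fold changes, none of them called: between plasmids MT-TQ with total counts (-0.0002) and, without the replicate block, MT-TG (-0.02), MT-TH (-0.07) and MT-TS2 (-0.07), and between lines MT-TV (-0.004) and MT-TK (-0.0009) with total counts. The cause of these shifts was not tested. Leaving out 1 library leaves no residual degree of freedom in the additive model, so no such fit was made. The lowest count of the 37 genes was 326, for MT-TM in DU145 with circ0003553. Its DU145 fold of circ0003553 over control had a counting interval of 0.808 to 1.25, so depth limits what small changes can be seen there.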
